A study of Mus musculus with 12 samples.

Results

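Mitochondrial carriers are the proteins of the Slc25 family, which move metabolites, nucleotides, phosphate and cofactors across the inner mitochondrial membrane. Sideroflexins, the Sfxn family, are a separate group of inner membrane transporters, of which some carry serine into mitochondria for one-carbon metabolism. In nervous tissue these proteins link cytosolic ATP, glutamate and citrate to the mitochondrial matrix, and different cell types favour different members. The genes described here were chosen by symbol, as loci named Slc25a followed by a number or Sfxn1 to Sfxn5, and where a symbol had several loci the one with the largest mean FPKM stood for it. The families were picked on measured values, because Slc25a23 and Sfxn3 stood out between dnEGFR mutants and controls. Their values in that comparison are therefore a description and carry no test. The rule found 52 genes (47 carriers and 5 sideroflexins) among 30997 gene symbols at 33864 loci. Of these, 43 reached the filter of 1 FPKM in at least 3 of the 12 libraries and 9 did not.

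Polyadenylated RNA was sequenced from the subcortical white matter of 12 mice that formed 4 groups of 3. The dnEGFR mutants had the genotype Sox10-tTA;TRE-dnEGFR, with a tetracycline transactivator under Sox10 sequences and a responder for a dominant-negative epidermal growth factor receptor, and their controls were TRE-dnEGFR littermates without the transactivator. All 6 received doxycycline from postnatal day 21 and were sampled at day 35. The ErbB2V664E mutants (Sox10-tTA;TRE-ErbB2V664E) carried a responder for ErbB2 with an activating substitution, their controls were TRE-ErbB2V664E littermates, and these 6 mice received doxycycline from day 21 and were sampled at day 30. No group carried Sox10-tTA alone, and whether doxycycline switched the responders on or off is not stated in the labels. Sox10 is active throughout the oligodendrocyte lineage, while the libraries hold RNA of all cells of the tissue, so fewer cells of a type and less RNA per cell cannot be told apart. Expression was given as FPKM (fragments scaled by transcript length and by the number mapped in the library), which allows levels to be compared between genes.

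Library totals lay between 117363 and 134410 FPKM, at an estimated 16596885 to 24739628 fragments per library. At that depth 1 FPKM in a transcript of 2 kb stands for 33.2 to 49.5 fragments. All 10 mature oligodendrocyte markers and all 14 neuronal markers examined were detected, and none was at 0 throughout. Summed oligodendrocyte markers were at 1066 to 1259 FPKM in dnEGFR controls, 1103 to 1304 in dnEGFR mutants, 1191 to 1928 in ErbB2V664E controls and 716 to 1169 in ErbB2V664E mutants. Summed neuronal markers spanned 804 to 1202 FPKM over the libraries. The libraries of the lines also stood apart. The locus Gm28661 was at 5589 to 6563 FPKM in every ErbB2V664E-line library and at 0 to 0.000146 in every dnEGFR-line library.

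The members spanned a wide range of levels. Summed over the 52 genes, expression was 433 ± 35.4 FPKM in dnEGFR controls, 445 ± 11.1 in dnEGFR mutants, 464 ± 21.6 in ErbB2V664E controls and 477 ± 8.45 in ErbB2V664E mutants (SD, n = 3 in every group here and below). That sum was 0.339% to 0.39% of the FPKM of a library. There were 10 genes with a mean of at least 10 FPKM, 31 between 1 and 10, and 11 below 1. The 2 ADP/ATP carriers Slc25a4 and Slc25a5 alone made up 30.1% to 46.9% of the sum. Slc25a23 made up 5.77% to 6.76% in dnEGFR controls, 11.8% to 12.9% in dnEGFR mutants and 16.9% to 20.1% in the other line.

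**Figure D1:**
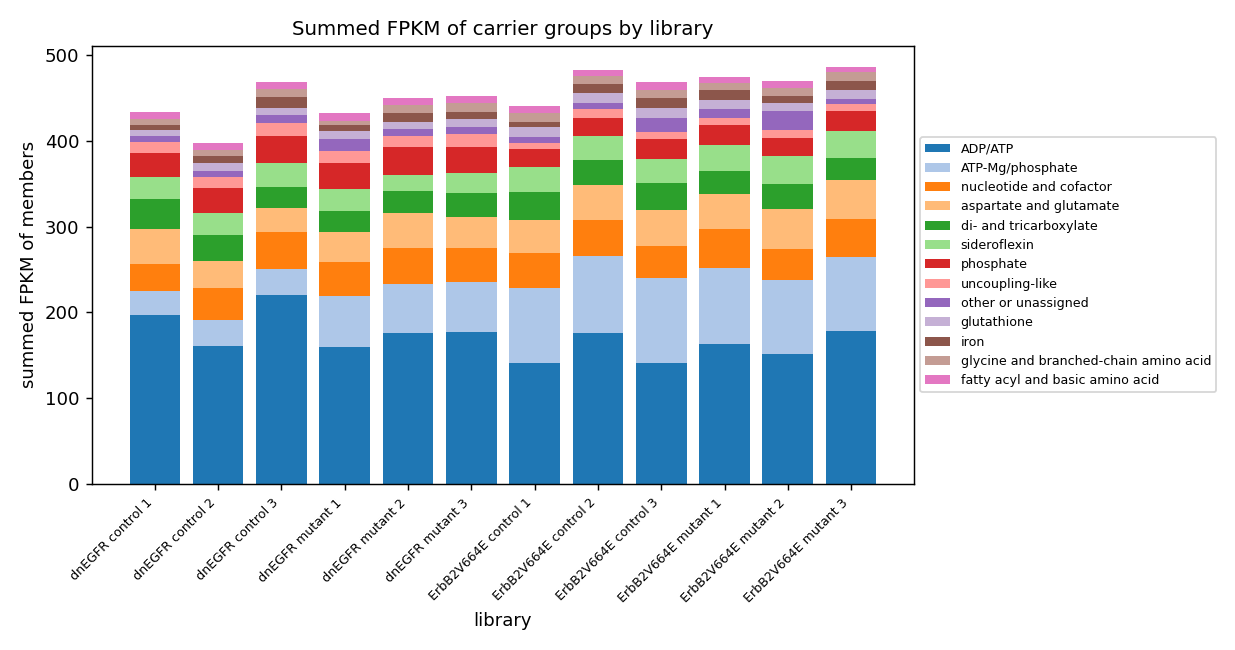
Summed FPKM of the members (y axis) in each of the 12 libraries (x axis), stacked by transport role. The ADP/ATP carriers form the base of every bar at 141 to 220 FPKM, and the ATP-Mg/phosphate band is at 28.3 to 30.5 in dnEGFR controls, 56.3 to 59.4 in dnEGFR mutants and 86.5 to 98.3 in the ErbB2V664E line.

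The promoter sequences of Slc25a23 and Sfxn3 are shown because these genes led to the choice of the families. Both are the 250 bases upstream of a RefSeq start site on GRCm38.p6, written 5′ to 3′ on the gene's strand, and capitals mark a GC box (GGGCGG or its reverse complement CCGCCC) or a CCAAT box (CCAAT or ATTGG). The first lies at chr17:57059843-57060092 on the minus strand and the second at chr19:45047326-45047575 on the plus strand.
Slc25a23: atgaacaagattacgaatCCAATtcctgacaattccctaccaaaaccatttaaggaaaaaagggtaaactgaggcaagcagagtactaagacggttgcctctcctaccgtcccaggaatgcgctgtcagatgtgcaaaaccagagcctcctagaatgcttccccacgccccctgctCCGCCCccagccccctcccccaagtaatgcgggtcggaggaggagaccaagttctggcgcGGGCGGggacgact
Sfxn3: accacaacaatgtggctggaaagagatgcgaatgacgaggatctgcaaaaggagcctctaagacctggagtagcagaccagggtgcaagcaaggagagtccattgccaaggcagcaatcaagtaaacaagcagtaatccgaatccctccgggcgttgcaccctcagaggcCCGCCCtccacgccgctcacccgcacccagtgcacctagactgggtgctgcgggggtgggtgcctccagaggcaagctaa
The Slc25a23 window held 2 GC boxes and 1 CCAAT box. RefSeq gives a second start for this gene, whose window (chr17:57059864-57060113) held 1 GC box and 1 CCAAT box. The Sfxn3 window held 1 GC box and no CCAAT box. None of these windows held the other motifs searched on both strands, namely the NRF1 motif, the E-box CACGTG and the ERR half-site AAGGTCA (reverse complement TGACCTT). Windows of 41 members were matched, and 28 (68.3%) held a GC box, against 32.7% of 27025 genes and 59.2% of 9790 genes tested for expression. A CCAAT box stood in 18 (43.9%) of the members' windows, against 34.2% and 35.9%. An E-box stood in 8 (19.5%), against 5.93% and 8.35%, an ERR half-site in 1 (2.44%), against 4.05% and 2.68%, and the NRF1 motif in 0, against 0.766% and 1.54%. The median GC content of the windows was 58.8% in these members, 52% in the 27025 genes and 60.4% in the tested genes among them.

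Slc25a23 encodes a calcium-regulated carrier that exchanges ATP-magnesium for phosphate and so sets the size of the matrix nucleotide pool. It was the second most abundant member by the mean over all libraries, 63 FPKM. In dnEGFR controls its mean of 26.4 was below those of Slc25a4 (132.5), Slc25a5 (59.8) and Slc25a3 (29.6). In dnEGFR mutants its mean of 54.9 was below those of Slc25a4 (99.8) and Slc25a5 (70.9). For Slc25a23 the dnEGFR controls were at 25, 26.9 and 27.4 FPKM and the dnEGFR mutants at 56, 53.1 and 55.5. Every mutant was above every control, and the mutant mean was 2.08-fold that of controls (log2 change of FPKM + 1, 1.03, SE 0.08). The ErbB2V664E controls were at 83.7, 85.6 and 94 FPKM and the ErbB2V664E mutants at 84.1, 82.4 and 82.5, so these groups overlapped. All 6 libraries of that line were above all 6 dnEGFR-line libraries, and the means rose in the order dnEGFR controls, dnEGFR mutants, ErbB2V664E mutants and ErbB2V664E controls. The last 2 differed by a log2 change of -0.08 (SE 0.08, limma, adjusted p = 0.746).

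The other carriers of this kind were at far lower levels. Slc25a25, a calcium-regulated paralog, was at 2.53 ± 0.372 FPKM in dnEGFR controls and 2.59 ± 0.209 in dnEGFR mutants, and at 3.41 ± 0.266 and 3.36 ± 0.349 in controls and mutants of the other line. Its log2 changes were 0.03 (SE 0.10) and -0.02 (SE 0.10, adjusted p = 0.973). As for Slc25a23, all 6 libraries of the ErbB2V664E line were above all 6 of the dnEGFR line. Slc25a24, another calcium-regulated paralog, fell below the filter. Its level was 0.722 ± 0.0806 FPKM in dnEGFR controls, 0.67 ± 0.0592 in dnEGFR mutants, 0.742 ± 0.0452 in ErbB2V664E controls and 0.858 ± 0.0637 in ErbB2V664E mutants. Slc25a41, a short paralog without the calcium-binding part, reached at most 0.234 FPKM. Slc25a23 held most of the summed FPKM of these 4 genes in every library.

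Sfxn3 encodes a sideroflexin that transports serine. The dnEGFR controls were at 14.7, 14.3 and 14.1 FPKM and the mutants at 8.93, 9.45 and 9.56. Every mutant was below every control, with a mean 0.648 times that of controls (log2 change -0.58, SE 0.08). In the other line the controls were at 17.6, 16.4 and 17.1 FPKM and the mutants at 18.2, 20.4 and 17.9. There every mutant was above every control, by a log2 change of 0.14 (SE 0.08) that did not pass the threshold (adjusted p = 0.524). Within litters Sfxn3 was lower in the mutant in 3 of 3 dnEGFR pairs and higher in 3 of 3 ErbB2V664E pairs. All 6 libraries of the ErbB2V664E line were above all 6 of the dnEGFR line.

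None of the remaining sideroflexins passed the threshold between ErbB2V664E mutants and controls. Sfxn1, the main mitochondrial serine transporter, was at 4.92 ± 0.258 FPKM in dnEGFR controls and 5.28 ± 0.807 in mutants (log2 change 0.08), and at 4.80 ± 0.483 and 4.78 ± 0.113 in the other line (0.00, adjusted p = 1). Sfxn2, linked to iron handling, was at 1.46 ± 0.504 and 2.02 ± 0.65 FPKM in the dnEGFR line (controls, then mutants; 0.30, SE 0.18). In ErbB2V664E controls and mutants it was at 1.15 ± 0.165 and 1.49 ± 0.116 (0.21, SE 0.18, adjusted p = 0.698), with no overlap between these groups and a higher value in the mutant of 3 of 3 litter pairs. Sfxn4, which is needed for assembly of respiratory complex I, had log2 changes of 0.03 and 0.08 (adjusted p = 0.74 for the second). Sfxn5 was uneven among replicates, at 1.9, 1.56 and 4.86 FPKM in dnEGFR controls and 5.35, 1.02 and 3.12 in dnEGFR mutants. Its 6 values in the ErbB2V664E line lay between 3.47 and 5.07.

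**Figure D2:**
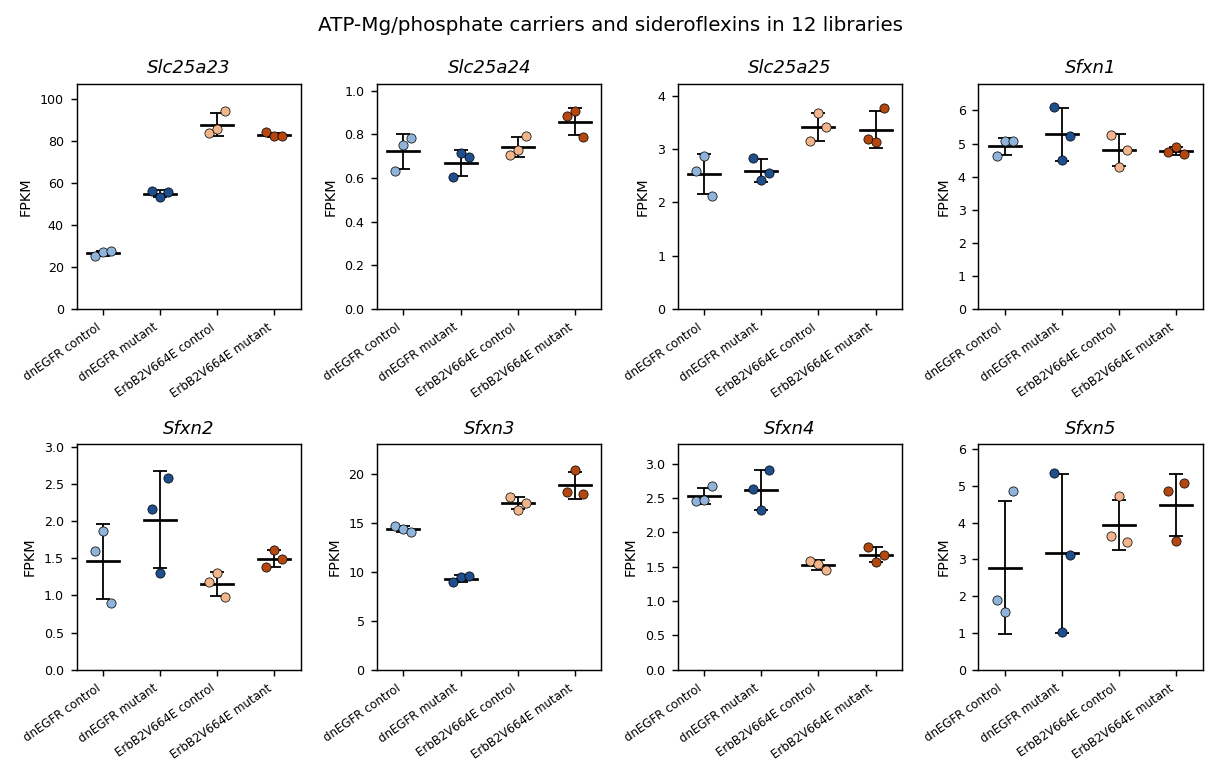
FPKM (y axis, from 0) of 3 ATP-Mg/phosphate carriers and 5 sideroflexins in the 4 groups (x axis), where each point is a library, the long bar its group's mean and the whisker the SD (n = 3). Slc25a23 is at 26.4 ± 1.27 in dnEGFR controls and 54.9 ± 1.52 in mutants, Sfxn3 is at 14.4 ± 0.338 and 9.31 ± 0.336, and Sfxn4 is lower in all ErbB2V664E-line libraries.

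Across the dnEGFR comparison as a whole, Slc25a23 (higher) and Sfxn3 (lower) were the 2 of 43 tested members with an adjusted p under 0.05, where 0.0942% of all loci passed. Since these genes led to the choice of the list, nothing is read from that count. With litter as a block neither passed. Sfxn3 also fell short in a fit on the dnEGFR libraries alone and when any of the 3 dnEGFR controls, dnEGFR mutant 1, dnEGFR mutant 2 or ErbB2V664E mutant 1 was left out. Of the other 41 members, Slc25a12 and Slc25a40 were higher and Slc25a13 lower without overlap, a share of 7.32% beside 10.1% of all loci. An unadjusted p under 0.05 was met by 1 of the 41 (2.44%), Slc25a4, beside 5.69% of all loci. The rule used this comparison, so nothing is read from these shares either. Log2 changes were positive in 30 and negative in 13 members, with a median of 0.07, beside a median of 0.01 and 51.4% positive over all loci. With median scaling 46.5% of all loci were positive. The counts of signs include Slc25a23 and Sfxn3 and come from the comparison that the rule used, so nothing is read from them. Summed striatal neuron markers (9 of 9 found) were at 136 to 213 FPKM in dnEGFR controls and at 362, 168 and 407 in dnEGFR mutants 1, 2 and 3. Summed red blood cell markers (5 of 5) were at 126 to 155 in these controls and at 116, 279 and 243 in the mutants. Their part in the values of Slc25a23, Sfxn3 and the other members was not tested.

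The ADP/ATP carriers export the ATP made in mitochondria, and Slc25a4 and Slc25a5 ranked at 1 and 3 among the members by mean FPKM. Slc25a4 was at 143, 118 and 136 FPKM in dnEGFR controls and at 80.2, 88.8 and 130.3 in dnEGFR mutants. Mutants 1 and 2 were below every control and mutant 3 was among them (log2 change -0.43, SE 0.19). Slc25a5 was at 54, 42.1 and 83.3 FPKM in these controls and 79, 87.4 and 46.4 in the mutants, so the groups overlapped (0.25). The share of Slc25a4 in the sum of the pair was 50.4% in dnEGFR mutants 1 and 2, 73.7% in mutant 3 and 62.1% to 73.8% in the controls. These paralogs are close in sequence, and how the authors' counting divided fragments between them is not known here.

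Several other members were uneven among the replicates of the dnEGFR comparison. Slc25a11, which exchanges oxoglutarate for malate, was at 24.5, 22.3 and 12.1 FPKM in controls and 15, 14.4 and 14.8 in mutants (log2 change -0.33, SE 0.21). Control 3 was below the mutants and the other controls were above them. Slc25a34, a carrier of uncertain substrate, was at 0.136, 1.40 and 1.32 FPKM in controls and 1.08, 1.18 and 1.74 in mutants (0.33, SE 0.33). Without control 1 its change was -0.03. Slc25a22, a glutamate carrier, ranged from 4.76 to 13.8 FPKM in controls and from 6.72 to 12.7 in mutants (0.23, SE 0.30).

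**Figure D3:**
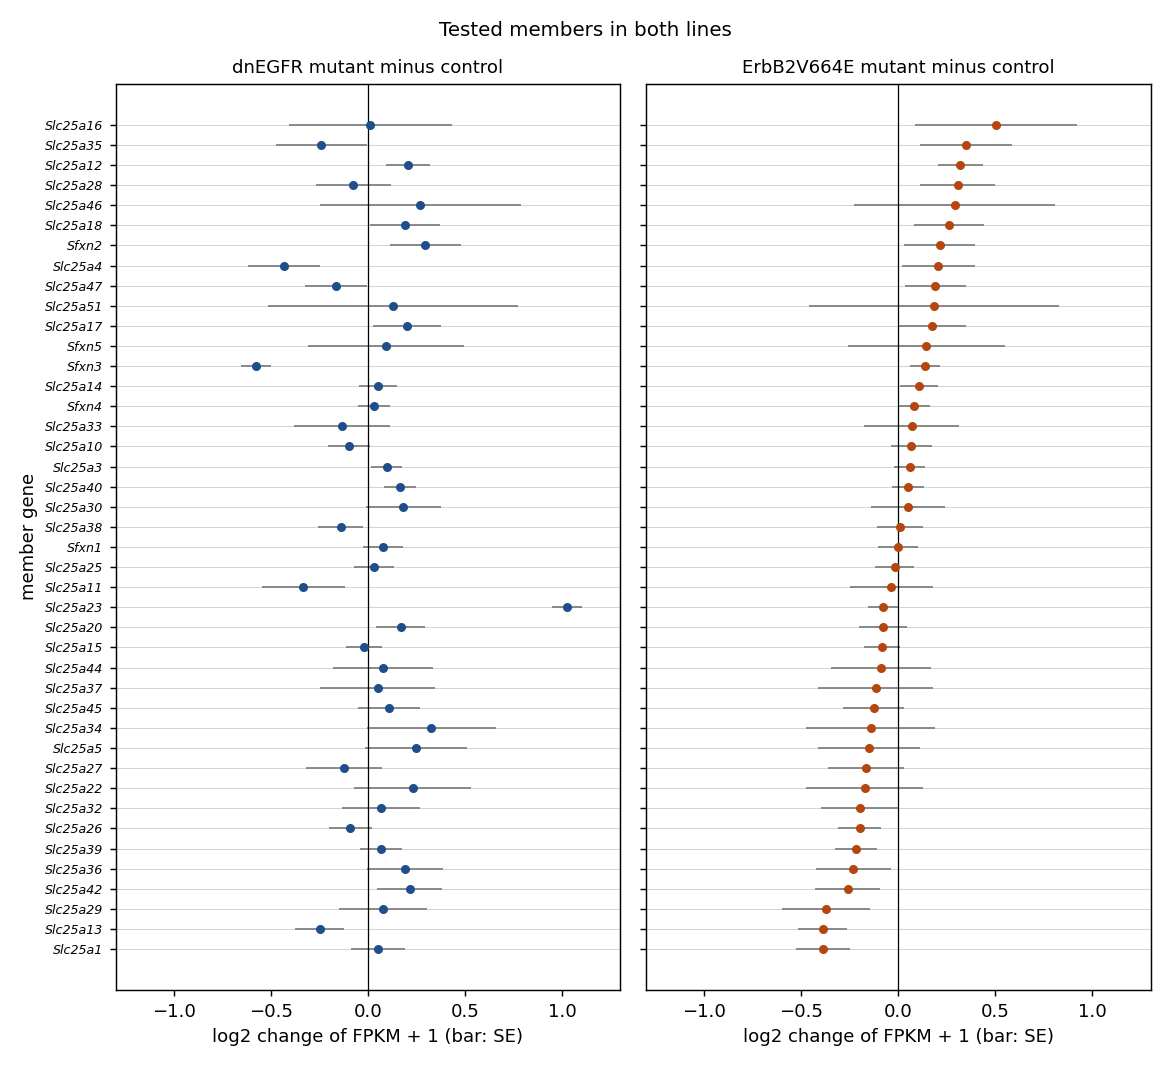
Log2 change of FPKM + 1, mutant minus control (x axis), of 42 of the 43 tested members (y axis, ordered by the ErbB2V664E value) in the dnEGFR line (left) and the ErbB2V664E line (right), with bars for the SE. Slc25a23 (1.03) and Sfxn3 (-0.58), whose changes on the left led to the choice of the families, are the largest there in size. Slc25a4 (-0.43) is next, and every value on the right lies between -0.39 and 0.50.

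The ErbB2V664E comparison was not used to choose the families, and here the members were tested. With limma 0 of 43 members passed the threshold, where 0.275% of all loci did, and the lowest adjusted p was 0.236. An unadjusted p under 0.05 was met by 3 members (6.98%), against 12.1% of all loci. Groups did not overlap in 8 members (18.6%), 4 higher and 4 lower in mutants, against 18.2% of all loci. Log2 changes were positive in 21 and negative in 22, with a median of 0.00 beside 0.00 over all loci, and 29 of the 43 were smaller than 0.2 in size. The members' shares were near the background in this line.

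The lowest p in that comparison came from the aspartate/glutamate carriers, which serve the malate-aspartate shuttle. Slc25a12, the form known from neurons, was at 12.7, 11.4 and 14 FPKM in ErbB2V664E controls and 14.3, 16.7 and 17.3 in mutants, a log2 change of 0.32 (SE 0.11, adjusted p = 0.285). Slc25a13, the form known from liver, was at 0.929, 1.29 and 0.855 in controls and 0.715, 0.427 and 0.491 in mutants. Its mutant mean was 0.531 times that of controls. The log2 change of FPKM + 1, a scale that compresses changes of low genes, was -0.39 (SE 0.13, limma, adjusted p = 0.236). Neither pair of groups overlapped, and neither change passed the threshold. In dnEGFR mutants the log2 changes were 0.21 for Slc25a12 and -0.25 for Slc25a13. The glutamate carrier Slc25a18 was at 12.2 ± 0.636 FPKM in ErbB2V664E controls and 14.8 ± 0.451 in mutants (0.26, adjusted p = 0.613), while Slc25a22 was at 14.9 ± 0.982 and 13.1 ± 0.649 (-0.17, adjusted p = 0.872).

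Slc25a1 exports citrate, the source of cytosolic acetyl-CoA for lipid synthesis. It was at 13.7, 12 and 14.4 FPKM in ErbB2V664E controls and 10.2, 9.70 and 9.91 in mutants. Every mutant was below every control, with a mean 0.743 times that of controls (log2 change -0.39, SE 0.14), and the change did not pass (adjusted p = 0.288). In the dnEGFR line it was at 9.38 ± 1.72 and 9.71 ± 1.43 FPKM. Slc25a39, which imports glutathione, was at 10.2 ± 0.112 FPKM in ErbB2V664E controls and 8.67 ± 0.428 in mutants (-0.22, SE 0.11, adjusted p = 0.459). Slc25a26, the S-adenosylmethionine carrier, was at 2.06 ± 0.228 and 1.68 ± 0.385 (-0.20, adjusted p = 0.511). Summed oligodendrocyte markers were lower in the same mutants, as given above, and summed red blood cell markers (5 of 5 found) were at 95.5 to 214 FPKM in controls and 22.1 to 118 in mutants. Summed microglial markers (7 of 7) were at 93.8 to 125 and 55.5 to 95.6, and summed astrocyte markers (8 of 8) at 278 to 430 and 205 to 241. Of the astrocyte markers, Aqp4 and S100b were lower in mutants without overlap, while the others overlapped between the groups. Slc1a2 was at 229 FPKM in control 1 and at 65.9 and 60.7 in the other controls. The part of all these markers in the members' values was not tested.

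None of the most abundant carriers passed the threshold in that line. Slc25a4 was at 93.9, 130.5 and 100.4 FPKM in controls and 124, 112 and 136 in mutants (log2 change 0.21, adjusted p = 0.715), and Slc25a5 at 44.4 ± 3.29 and 39.9 ± 1.55 (-0.15, adjusted p = 0.872). Slc25a3, the phosphate carrier that supplies ATP synthase, was at 21.8 ± 0.674 and 22.7 ± 0.771 FPKM (0.06, adjusted p = 0.831). Slc25a11 was at 15.5 ± 0.535 and 15.1 ± 2.19 (-0.04, adjusted p = 0.975). Slc25a51, the NAD carrier, was uneven in every group, with libraries between 4.29 and 12.9 FPKM in this line and between 1.88 and 12.9 in the other. A second locus with its symbol was at 3.92 FPKM in dnEGFR control 1, at 0.13 in control 2 and listed at 0 in the other 10 libraries. The log2 change of the main locus was 0.18 in the ErbB2V664E line (adjusted p = 0.949) and 0.13 in the dnEGFR line, and it was 0.57 between the control groups (adjusted p = 0.577).

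The controls of the lines were compared to describe the level of the members across the 4 groups. Line, age, length of doxycycline and any processing batch cannot be told apart in this comparison, and the Gm28661 locus separated the same libraries. Of the 41 tested members other than Slc25a23 and Sfxn3, 9 passed the threshold (22%), 5 higher and 4 lower in ErbB2V664E controls, against 20.0% of all loci. Among the same 41 an unadjusted p under 0.05 was met by 14 (34.1%), against 34.3%, and groups did not overlap in 15 (36.6%), against 41.4%. All 6 libraries of one line lay above all 6 of the other in 8 of the 41 (19.5%), against 19.9% of all loci. These shares were near the background.

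Among the lower ones, Slc25a3 was at 27.8, 29 and 32 FPKM in dnEGFR controls and 21.6, 21.2 and 22.5 in ErbB2V664E controls (log2 change -0.42, SE 0.08, adjusted p = 0.0059). Slc25a27, an uncoupling-protein-like carrier of neurons, was at 5.16, 6.32 and 6.14 FPKM and 1.71, 2.73 and 3.53 (-0.94, SE 0.20, adjusted p = 0.00917). Sfxn4 was at 2.46, 2.47 and 2.67 FPKM and 1.59, 1.53 and 1.45 (-0.48, SE 0.08, adjusted p = 0.0031). Slc25a15, the ornithine carrier, was at 2.28 ± 0.0804 FPKM and 1.57 ± 0.243 (-0.36, adjusted p = 0.024). For each of these 4 genes the mutants lay with the controls of their own line, and the lines did not overlap.

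Among the higher ones, Slc25a39 was at 5.78, 7.65 and 7.45 FPKM in dnEGFR controls and 10.3, 10.1 and 10.3 in ErbB2V664E controls (log2 change 0.51, SE 0.11, adjusted p = 0.0102). Slc25a1 was at 9.38 ± 1.72 and 13.4 ± 1.28 FPKM (0.48, adjusted p = 0.0367), and Slc25a10, the dicarboxylate carrier, at 1.25 ± 0.106 and 1.90 ± 0.206 (0.37, adjusted p = 0.0364). Slc25a25 was at 2.53 ± 0.372 and 3.41 ± 0.266 (0.33, adjusted p = 0.047). Slc25a38, the glycine carrier needed for haem synthesis, was at 1.92 ± 0.216 and 2.86 ± 0.393 (0.40, adjusted p = 0.0388). That last difference was 0.01 when both loci of Slc25a38 were summed, with an adjusted p of 0.99. Slc25a3, Slc25a27, Slc25a39 and Sfxn4 passed under all 19 alternatives, and the other 5 fell short in 7 to 15 of them.

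**Figure D4:**
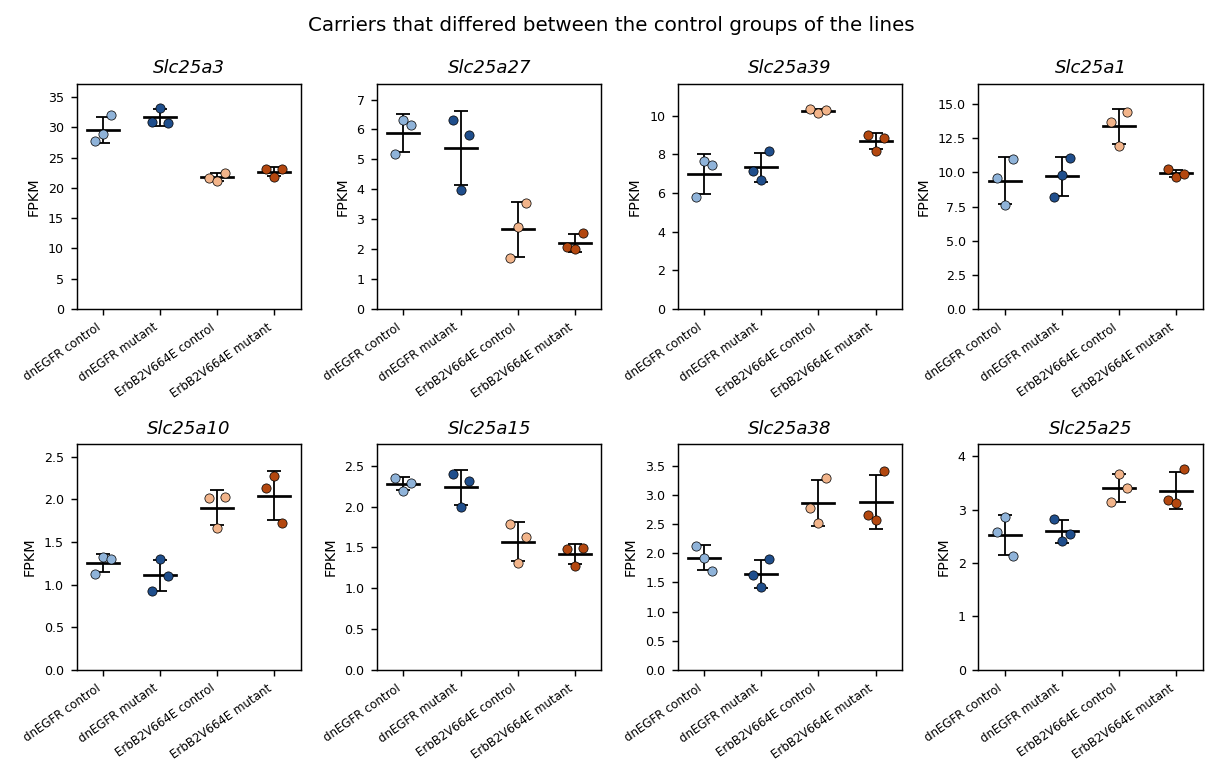
FPKM (y axis, from 0) of 8 carriers that passed the threshold between the control groups of the lines, in the 4 groups (x axis), where each point is a library, the long bar its group's mean and the whisker the SD (n = 3). Slc25a3, Slc25a27 and Slc25a15 are lower in the ErbB2V664E line, and the other 5 are higher in ErbB2V664E controls.

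Of members that did not pass between the control groups, Slc25a22 and Slc25a11 each passed in 1 of 19 alternatives and Slc25a29 in 2. Slc25a22 was at 13.8, 4.76 and 7.13 FPKM in dnEGFR controls against 13.8, 15.8 and 15.1 (log2 change 0.84, adjusted p = 0.0759), and without dnEGFR control 1 the change was 1.21 with an adjusted p of 0.0091. Slc25a11 differed by -0.27 (adjusted p = 0.419) and, without dnEGFR control 3, by -0.57 with an adjusted p of 0.0153. Both control groups of Slc25a29, a carrier of basic amino acids, were even. It was at 1.80 ± 0.123 and 3.09 ± 0.21 FPKM (0.55, adjusted p = 0.117), and the adjusted p was 0.0034 without ErbB2V664E mutant 3, whose value was 0.987 beside 2.68 and 3.30 in the other mutants. Slc25a42, a carrier of coenzyme A, was at 2.82 ± 0.518 and 4.37 ± 0.169 FPKM in the control groups without overlap (0.50, adjusted p = 0.06). In all, 7 of the 43 tested members varied over 3-fold among the libraries of at least 1 group, and 14 varied under 1.5-fold in all 4 groups. The same counts were not made over all loci, so whether the members were more uneven than others is not known here.

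The 9 members below the filter were Slc25a2, Slc25a21, Slc25a24, Slc25a31, Slc25a41, Slc25a43, Slc25a48, Slc25a53 and Slc25a54. Of these, 7 had a mean under 0.2 FPKM, among them Slc25a31, the ADP/ATP carrier of the testis. Slc25a53 was at 0.237 to 0.906 FPKM over the libraries.

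Genes around the carriers in mitochondrial transport were examined in the same fit. The TIM22 and TOM complexes insert and admit carrier proteins, and of 16 import genes tested 0 passed in either mutant comparison, with median log2 changes of 0.10 (dnEGFR) and -0.05 (ErbB2V664E). The most abundant import gene, Tomm70a, a receptor for carrier precursors, was at 23.5 ± 2.64 and 27.5 ± 1.33 FPKM in the dnEGFR line (controls, then mutants) and at 45.4 ± 10.2 and 40.8 ± 3.28 in the other line. Of 14 mitochondrial membrane transporters tested whose symbols the rule did not match, 0 passed in either (medians -0.01 and 0.01). Among them was the outer membrane channel Vdac1, at 112 ± 7.99 and 93.1 ± 26.1 FPKM in the dnEGFR line. Of 6 calcium uptake genes 0 passed (0.00 and -0.04), and of 14 genes of serine and one-carbon metabolism 0 passed (0.03 and -0.11). Over all loci 0.0942% passed in the dnEGFR comparison and 0.275% in the ErbB2V664E comparison, so nothing is read from counts of 0. At an unadjusted p under 0.05 limma counted 1, 1, 0 and 0 genes of these 4 lists in the dnEGFR comparison and 3, 0, 0 and 3 in the ErbB2V664E comparison, where 5.69% and 12.1% of all loci met it. Between the control groups the counts that passed were 4 of 16, 3 of 14, 1 of 6 and 0 of 14, beside 20.0% of all loci. These 8 were Tomm70a (log2 change 0.90), the joined locus of Tomm6 (0.39), Ucp2 (0.46) and the joined locus of Smdt1 (0.51), which were higher in ErbB2V664E controls, and Timm9 (-0.58), the joined locus of Tomm7 (-0.82), Mtch2 (-0.44) and Vdac3 (-1.04), which were lower.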

How the data were processed

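The authors deposited FPKM values as 1 table over 33864 loci, calculated by StringTie on their final transcriptome per the series' design text. HISAT and StringTie stand in the submitters' processing notes, with no version. The sources used here give no genome build, annotation or options. Groups and litters were taken from the sample labels. The test was limma (version 3.58.1, R 4.3.3), two-sided, on log2(FPKM + 1), with 1 mean per group over 12 libraries and a moderated variance that followed mean expression. It covered 13803 loci at or above 1 FPKM in at least 3 libraries, and the Benjamini-Hochberg adjustment ran over all of them, with calls at 0.05. Changes of low genes are compressed on this scale. The fit was first tested on simulated data, with changes larger than any the members had in the ErbB2V664E line. That trial does not show how often changes of the members' size would be found. Promoter sequences came from RefSeq (GRCm38.p6). After the windows of 1 chromosome were left out, as given above, 41 of 52 members had a window. Fragments per library were estimated from the lowest values of 14221 loci with 1 transcript (tolerance 0.01 of a fragment). Tables and plots used Python 3.11.15 with numpy 2.4.6, pandas 2.3.3 and matplotlib 3.10.9.

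The members and lists were chosen with earlier results of these data known. Genes were named by rule: Slc25a23, Sfxn3, members that passed in a comparison, the 12 with the highest mean, the 6 with the lowest p (ErbB2V664E) or the largest change (other comparisons), all sideroflexins and all ATP-Mg/phosphate carriers. Of the other lists, genes that passed and up to 3 of the highest level could be named. Slc25a40, Slc25a42 and the members below the filter were named beyond this rule, after their values were seen. The values of 1 tested member are not reported here, though counts and sums include it. The marker lists were neuron, mature oligodendrocyte, precursor, astrocyte, microglia, endothelial, red blood cell and striatal neuron. The summed precursor markers lay between 22 and 32.4 FPKM and endothelial markers between 21.2 and 39.9. The labels name the littermate of each mutant, so replicate numbers pair the libraries. Within the 6 pairs, deviations from the group mean correlated at -0.03 to 0.03. Alternatives were another pseudocount (0.1), no filter, quantile or median scaling, a litter block, fits on 2 groups, no variance trend, summed loci and leaving out each library.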

Additional observations from a re-analysis of the deposited data

Results flagged for a closer look

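Sfxn3 was the member, of 43 examined, whose change had opposite signs in every litter pair of the lines: lower in the mutant of all 3 dnEGFR pairs (log2 differences -0.66, -0.55 and -0.51) and higher in the mutant of all 3 ErbB2V664E pairs (0.05, 0.30 and 0.07). The change in the ErbB2V664E line minus that in the dnEGFR line was 0.71 on the log2 scale. This difference was not tested, since the dnEGFR comparison had led to the choice of the gene. The share of all loci with opposite signs in every pair was not counted, so nothing is read from this pattern. Groups of 3 libraries are too small to examine single libraries for outlying values.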

How the results depend on the processing

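In the dnEGFR comparison 13 loci passed, and 3 with the litter as replicate block, 22 in a fit on its 2 groups, and 9 to 34 when 1 library was left out (31, 24 and 22 without dnEGFR control 1, 2 or 3, 24 without mutant 1 and 34 without mutant 3). Of members 2 passed there, 0 with the block, 1 on 2 groups, and 1 to 2 with 1 library left out. The 2 are Slc25a23 and Sfxn3, which led to the choice of the families, so nothing is read from these counts. In the ErbB2V664E comparison 38 loci passed, 7 with the block, 23 on its 2 groups, and 12 to 235 with 1 library left out (235, 12 and 23 without its mutant 1, 2 or 3, 21 and 16 without its control 1 or 3, 25 and 21 without dnEGFR control 2 or 3), and members stayed at 0 in all 20 alternatives. Between the control groups 2761 loci passed, and 1809 to 2780 with 1 library left out (1809 without ErbB2V664E control 3). Members that passed there numbered 10 with Slc25a23, 5 with no filter, 6 with median scaling, and 5 to 11 with 1 library left out (6 without dnEGFR control 1 or ErbB2V664E control 1, 5 without ErbB2V664E control 3). The cause of these differences was not tested. The block changed no other call of a member; the control groups share no litter.

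Some signs turned between fits. The main changes of the members listed here were at most 0.18 in size, that of Slc25a51 in the ErbB2V664E comparison. In the dnEGFR comparison signs also turned, among them those of Sfxn5, Slc25a22 and Slc25a51, whose alternative values are not listed. In the ErbB2V664E comparison Sfxn1 was at 0.0022 with quantile normalization. With 1 library left out the lowest and highest log2 changes were -0.0644 and 0.0562 for Sfxn1, -0.1436 and 0.0384 for Slc25a11, -0.0835 and 0.0252 for Slc25a25, -0.3679 and 0.0026 for Slc25a27, -0.3041 and 0.1844 for Slc25a34, -0.0875 and 0.0870 for Slc25a38, -0.2632 and 0.4970 for Slc25a51 in the ErbB2V664E comparison, and -0.0909 and 0.0296 for Sfxn1, -0.1562 and 0.0041 for Slc25a13, -0.2809 and 0.0305 for Slc25a18, -0.5059 and 0.0336 for Slc25a34 between the control groups. None of these passed the threshold in any of these fits. Of the 500 alternative values of named members in the ErbB2V664E comparison, 485 kept their sign and their side of the threshold. Depth limits what can be said of the 9 members below the filter, for which values alone are given.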
